A study of Mus musculus with 6 samples.

Results

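The genes described here are 10 members of the interleukin-1 family and cytokines tied to it. They comprise 4 ligands (Il1a, Il1b, Il18 and Il33), the antagonist Il1rn, the receptor chains Il1r1, Il1rap and Il1rl1, and the linked cytokines Il6 and Tnf. The genes were chosen by their HFD against CD signals in an earlier reading of these same arrays, and their probes were then taken by name. Every non-control probe whose RefSeq accession belongs to one of these genes was used. This gave 13 probes for 10 genes, of 28689 probes for 23460 genes or unnamed transcripts that were measured. Il1rl1 had 3 probes, Il1rap had 2, and the other genes had 1 each. The differences between diets below are therefore a description of these 10 genes, with no support drawn from them.

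Mammary RNA came from female mice lacking Trp53, the gene of the tumour suppressor p53. The HFD group is 3 mice given a high-fat diet, and the CD group is 3 mice given a control diet. Diets were assigned at random and ran from 3 to 8 weeks of age, so feeding lasted 5 weeks. All mice were Trp53 knockouts, with no mice carrying an intact Trp53 gene among the 6, and each mouse was read on 1 single-colour array. The labels call the mice biological replicates and do not give the composition of the diets.

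Between 27203 and 29412 of the array's 39429 probes were well above background per array, no spot was saturated, and the 75th percentile of signal lay between 1326 and 1973 intensity units. Mammary glands are the labelled source, while the descriptions speak of mammary epithelial cells. Adipocyte markers, from the fat cells that fill an intact gland, were split. Adipoq, the fat-cell hormone, lay at -6.21, -5.74 and -5.88 on the HFD arrays, against -7.33, -6.65 and -6.98 on the CD arrays. These levels are log2 of the signal over the array's 75th percentile, the scale used throughout, and they sit close to the lowest detected signal on each array (-7.87 to -6.83). Plin1, Lep, Cidec and Lipe were also dim, between -6.51 and -4.67 on all 6 arrays. The fatty-acid carrier Fabp4 was bright, at 0.39, 2.55 and 1.36 on the HFD arrays, against 0.77, 1.45 and 1.71 on the CD arrays. Pparg, the adipogenic transcription factor, lay at -2.58, -2.09 and -1.97 on the HFD arrays, against -1.48, -1.13 and -0.76 on the CD arrays. Krt18, a luminal epithelial keratin, lay between 7.59 and 8.45 on the HFD arrays and between 7.35 and 7.94 on the CD arrays. None of the 6 arrays had the T cell markers Cd3d and Cd8a or the B cell marker Ms4a1 well above background. What kind of sample was hybridised cannot be settled from the labels.

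Interleukin-1 is an alarm signal. Il1a and Il1b bind the receptor Il1r1, which signals once the accessory chain Il1rap joins, while Il1rn occupies the same receptor without signalling. Il33 uses the related receptor Il1rl1 with the same accessory chain, and Il18 uses a receptor pair of its own. Signals from these receptors run through Myd88 to NF-kB, which drives cytokines such as Il6 and Tnf. In the mammary gland, epithelial cells, fibroblasts and resident leukocytes can all make or sense these cytokines.

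All 13 probes were well above background on all 6 arrays. Of the 10 genes, Il1rn and Tnf had higher levels on every HFD array than on any CD array. Il18, Il1r1 and Il1rap lay lower on every HFD array than on any CD array, while the other 5 genes overlapped between diets. The same absence of overlap was found in 17.2% of all 23460 genes, 8.47% with HFD above CD and 8.75% with HFD below CD. With limma, 0 of the 10 genes passed an adjusted p of 0.05, and the lowest adjusted p was 0.117, for Il1rn. Over all genes 0.0171% passed, 4 genes that were all lower with HFD. Fitted by probe, 0 of the 13 passed, against 0.0174% of all 28689 probes. At an unadjusted p under 0.05 there were 5 of the 10 genes and 13.3% of all genes, from which nothing is read because the same comparison stood behind the choice of the genes. The median difference of HFD minus CD was -0.39 over the 10 genes, with 3 positive and 7 negative, and -0.01 over all genes.

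**Figure D1:**
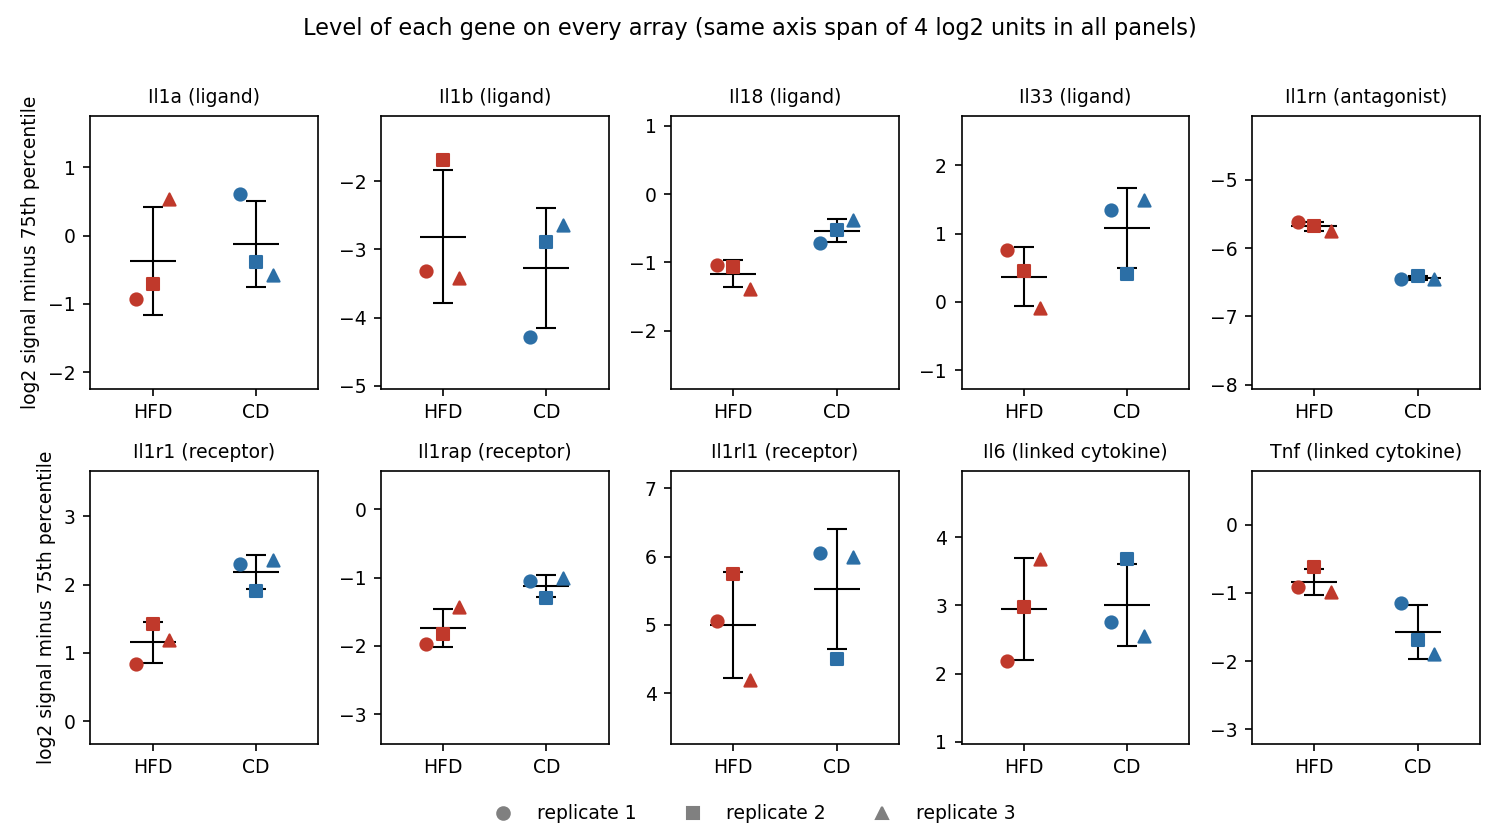
Level of each gene on every array (vertical axis, log2 of signal over the array's 75th percentile), HFD left and CD right, with 1 symbol per mouse and bars for the mean ± SD of 3 mice. Each panel spans the same 4 log2 units. The diets stand apart for Il1rn, Tnf, Il18, Il1r1 and the brighter Il1rap probe, and mice of one diet spread widely for Il1b, Il1a, Il6 and Il1rl1.

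The promoters of the 5 genes whose diets did not overlap (Il1rap by its brighter probe only) are shown so that the regulatory letters can be set beside the levels. Each is the 250 bases before an annotated transcription start, 5′ to 3′ on the gene's own strand, from RefSeq on GRCm38.p6. Capitals mark matches to the kappaB consensus, which NF-kB binds, to TATAAA, the TATA box, and to TGANTCA, the AP-1 site. Both strands were searched and no matches overlapped. Where a gene has several starts, the one with a match is shown.
Il1rn, chr2:24336610-24336859, plus strand: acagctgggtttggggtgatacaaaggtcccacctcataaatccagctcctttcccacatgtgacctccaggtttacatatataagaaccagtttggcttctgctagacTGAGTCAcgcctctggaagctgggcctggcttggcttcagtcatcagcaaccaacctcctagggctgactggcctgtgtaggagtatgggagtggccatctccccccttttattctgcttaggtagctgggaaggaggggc
Tnf, chr17:35202008-35202257, minus strand: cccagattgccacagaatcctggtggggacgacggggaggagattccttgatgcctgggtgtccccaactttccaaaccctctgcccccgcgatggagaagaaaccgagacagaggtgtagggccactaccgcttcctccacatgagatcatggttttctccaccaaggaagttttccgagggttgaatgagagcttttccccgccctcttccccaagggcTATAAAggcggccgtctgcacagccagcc
Il18, chr9:50554450-50554699, plus strand: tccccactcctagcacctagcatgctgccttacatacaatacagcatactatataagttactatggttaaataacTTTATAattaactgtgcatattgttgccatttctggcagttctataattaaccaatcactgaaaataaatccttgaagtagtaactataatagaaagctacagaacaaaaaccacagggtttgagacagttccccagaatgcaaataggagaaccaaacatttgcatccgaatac
Il1r1, chr1:40266336-40266585, plus strand: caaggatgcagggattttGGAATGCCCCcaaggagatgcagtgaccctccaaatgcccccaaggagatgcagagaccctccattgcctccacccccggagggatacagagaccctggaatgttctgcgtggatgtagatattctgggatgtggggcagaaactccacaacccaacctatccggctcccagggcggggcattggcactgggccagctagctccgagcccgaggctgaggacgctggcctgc
Il1rap, chr16:26581455-26581704, plus strand: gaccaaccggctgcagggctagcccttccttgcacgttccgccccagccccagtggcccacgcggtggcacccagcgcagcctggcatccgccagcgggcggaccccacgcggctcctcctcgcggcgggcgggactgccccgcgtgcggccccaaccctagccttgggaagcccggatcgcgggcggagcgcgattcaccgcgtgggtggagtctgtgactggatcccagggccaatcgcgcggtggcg
Il1r1 held a kappaB match on the other strand, 232 bases before its start, and Il1rn held TGANTCA 141 bases before its start. Tnf held TATAAA 29 bases before its start, Il18 held it on the other strand 175 bases before its start, and Il1rap held none of the motifs in this window. Over all 15 windows of the 10 genes, 2 held a kappaB match (Il1r1 and Il6), against 7.25% of 32851 windows of all genes. TATAAA was in 6 windows (Il1a, Il1b, Il18, Tnf and both Il33 starts), against 12.4% of all windows. TGANTCA was in 3 (Il1rn, Il1a and Il6), against 6.75%. No window was matched to a probe's transcript.

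Among the ligands, Il18 and Il33 had lower means with HFD, Il1b had a higher mean, and only Il18 separated the diets. Il18 (NM_008360), a cytokine made by epithelium and macrophages that is released after cleavage by caspase-1, lay at -1.04, -1.07 and -1.39 on the HFD arrays, against -0.71, -0.53 and -0.37 on the CD arrays. All 3 HFD mice were below all 3 CD mice, by 0.32 at the narrowest point. The means were -1.16 ± 0.19 with HFD and -0.54 ± 0.17 with CD (SD, n = 3 each), a log2 difference of -0.63 (SE 0.16), or 1.54-fold lower with HFD. The arrays lay on 3 slides, and only 1 slide held both diets, with HFD replicates 2 and 3 and CD replicate 1. Within that slide Il18 differed by -0.51. In bulk RNA, fewer cells of a type and less RNA per cell cannot be told apart.

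Il33 (NM_001164724), a nuclear alarmin of epithelial and stromal cells, lay at 0.76, 0.45 and -0.10 on the HFD arrays, against 1.35, 0.41 and 1.50 on the CD arrays. CD replicate 2 fell among the HFD mice, so the diets overlapped. The difference was -0.72 (SE 0.35), -1.17 within the shared slide and -1.05 without CD replicate 2. It shrank to -0.48 without HFD replicate 3 and to -0.51 without CD replicate 3.

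Il1a (NM_010554), an alarmin of epithelial cells, lay at -0.93, -0.71 and 0.54 on the HFD arrays, against 0.60, -0.39 and -0.57 on the CD arrays. The 2 high mice, HFD replicate 3 and CD replicate 1, came from different diets. The difference of -0.25 (SE 0.48) was smaller than the spread between mice and became 0.11 without CD replicate 1 and 0.03 without HFD replicate 1.

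Il1b (NM_008361), the secreted form made mainly by activated macrophages and neutrophils, lay at -3.32, -1.70 and -3.42 on the HFD arrays, against -4.28, -2.89 and -2.65 on the CD arrays. It varied most of the 10 genes, over 2.59 log2 units, from CD replicate 1 to HFD replicate 2. This probe has 10 spots per array, of which 7 to 10 were usable, and their signals had an SD of 0.03 to 0.07 log2 units. That covers noise between spots of one array, and not RNA preparation, labelling or hybridisation. The SD between arrays was 0.97 with HFD and 0.88 with CD, which holds those steps as well as the mice. The difference between diets was 0.46 (SE 0.61). It was 1.72 within the shared slide, -0.10 without HFD replicate 2 and -0.05 without CD replicate 1.

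The antagonist Il1rn (NM_001039701) was higher with HFD, with the smallest spread between mice of the 10 genes. It lay at -5.62, -5.67 and -5.75 on the HFD arrays, against -6.46, -6.41 and -6.45 on the CD arrays. The diets stood 0.66 log2 units apart at the narrowest point, while the SD between mice was 0.06 with HFD and 0.03 with CD (n = 3 each). The difference was 0.76 (SE 0.11), or 1.69-fold higher with HFD, and 0.75 within the shared slide. Il1rn was also the dimmest of the 13 probes: its single spot gave 40.1, 32.2 and 29.6 intensity units on the HFD arrays, against 20.8, 15.6 and 15.7 on the CD arrays. On 1 array it was as little as 0.84 log2 units above the lowest detected signal. The scanner software's own error for this spot was 11.8% to 15.8% of the signal, against at most 10.4% for any other probe of the 10 genes.

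Of the receptor chains, Il1r1 and the brighter Il1rap probe were lower with HFD. Il1r1 (NM_008362), the signalling receptor of interleukin-1, lay at 0.84, 1.42 and 1.20 on the HFD arrays, against 2.30, 1.90 and 2.36 on the CD arrays. All HFD mice were below all CD mice, by 0.48 at the narrowest point. The means were 1.15 ± 0.29 with HFD and 2.19 ± 0.25 with CD (SD, n = 3 each), and the difference of -1.03 (SE 0.21), or 2.05-fold lower with HFD, was the largest of the 10 genes. It was -0.99 within the shared slide.

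The accessory chain Il1rap gave 2 answers. Its brighter probe (NM_134103) lay at -1.97, -1.83 and -1.43 on the HFD arrays, against -1.05, -1.31 and -1.01 on the CD arrays. The diets did not overlap but came within 0.13 of each other, and the difference was -0.62 (SE 0.18), with -0.59 within the shared slide. The dimmer probe (NM_008364) lay at -3.02, -3.21 and -2.94 on the HFD arrays, against -2.40, -4.10 and -3.83 on the CD arrays. There the HFD mice fell inside the CD range and the difference was 0.38 (SE 0.44), but -0.68 within the shared slide. The gap between the 2 probes was 1.05 to 1.51 log2 units on the HFD arrays, against 1.35, 2.79 and 2.82 on the CD arrays. With the mean of both probes the difference was -0.12, so over all arrays the lower Il1rap level was that of the first probe alone.

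Il1rl1, the receptor of Il33, was the brightest of the 10 genes in signal, though probes differ in efficiency and their signals are not a measure of relative abundance. Its NM_010743 probe read 65996, 87845 and 29113 intensity units on the HFD arrays, against 121933, 30135 and 88196 on the CD arrays. In levels these were 5.06, 5.74 and 4.19 with HFD, against 6.06, 4.51 and 5.999 with CD. The gene is known to encode a membrane receptor and a soluble decoy from separate transcripts. Its other 2 probes both carry NM_001025602. The first lay at 3.96, 3.55 and 2.67 with HFD, against 3.93, 2.44 and 3.64 with CD, and the second at -1.68, -2.09 and -3.11 with HFD, against -1.81, -3.46 and -2.33 with CD. On every probe HFD replicate 3 was the lowest HFD mouse and CD replicate 2 the lowest CD mouse. The differences were -0.52 (SE 0.55) for NM_010743 and 0.05 (SE 0.48) and 0.24 (SE 0.52) for NM_001025602. Within the shared slide they were -1.09, -0.82 and -0.79, so the sign of the last 2 turned. Leaving out single mice moved the NM_010743 difference between -1.03, without CD replicate 2, and -0.12, without HFD replicate 3.

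The NM_010743 probe of Il1rl1 did not keep a constant gap to the other 2. The 2 NM_001025602 probes kept nearly the same gap, 5.64 to 5.77 log2 units on the HFD arrays and 5.74 to 5.97 on the CD arrays. The gap of NM_010743 over the first of them was 1.11, 2.20 and 1.52 on the HFD arrays, against 2.13, 2.06 and 2.36 on the CD arrays, with overlap. Over the second it was 6.75, 7.84 and 7.30 on the HFD arrays, against 7.87, 7.96 and 8.33 on the CD arrays. Every HFD mouse lay below every CD mouse, but HFD replicate 2 and CD replicate 1 were nearly level. The SD of this gap was 0.55 with HFD and 0.24 with CD (n = 3 each). How often probe gaps of other genes lack overlap was not worked out, so nothing is read from it. The files give an accession for each probe and not the exon it reads.

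**Figure D2:**
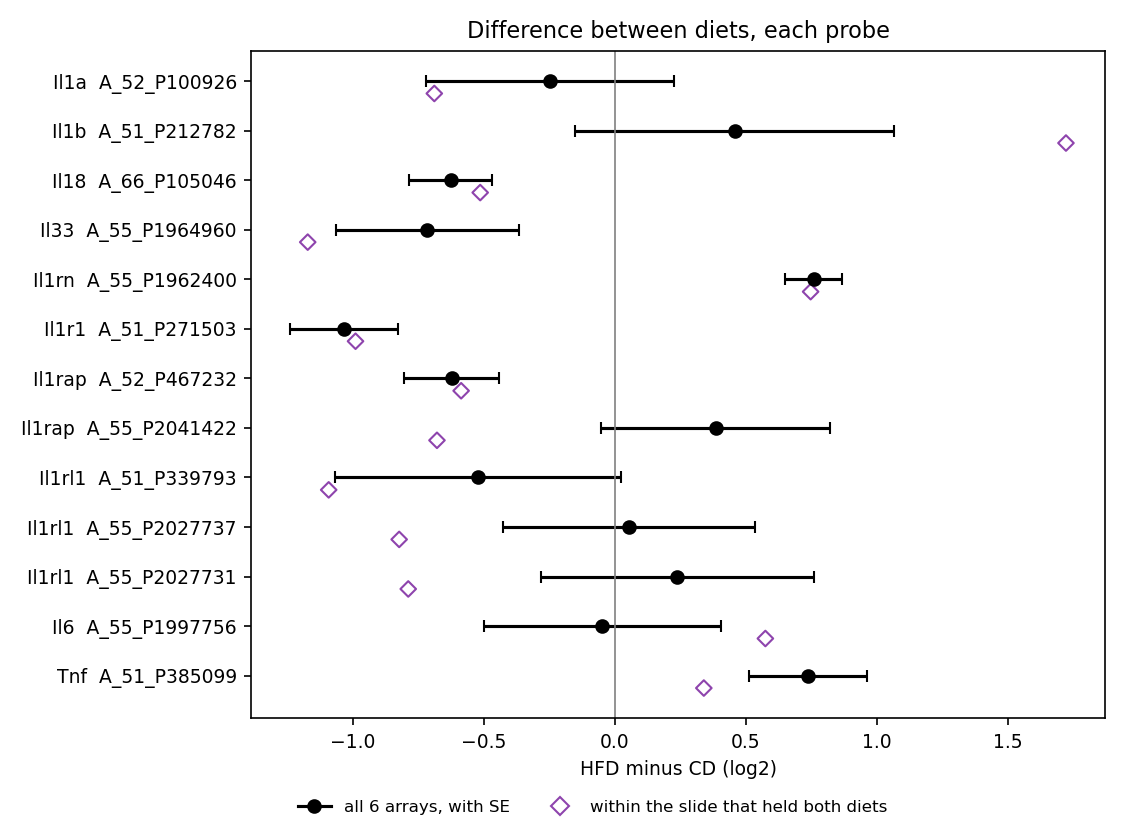
Difference of HFD minus CD for each of the 13 probes (horizontal axis, log2). Filled circles with bars are the estimate over all 6 arrays ± its SE, and open diamonds are the same difference within the only slide with both diets. For Il18, Il1rn, Il1r1 and the upper Il1rap probe both estimates lie close together, while for Il1b they are 0.46 and 1.72.

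The linked cytokines differed from each other. Tnf (NM_013693), an inflammatory cytokine of macrophages and T cells, lay at -0.92, -0.63 and -0.98 on the HFD arrays, against -1.14, -1.68 and -1.90 on the CD arrays. The HFD mice were all above the CD mice, by 0.16 at the narrowest point between HFD replicate 3 and CD replicate 1. The means were -0.84 ± 0.19 with HFD and -1.58 ± 0.39 with CD (SD, n = 3 each), a difference of 0.74 (SE 0.23), or 1.66-fold higher with HFD. Within the shared slide it was 0.34. The 10 spots of the Tnf probe had an SD of 0.03 to 0.06 log2 units on each array.

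Il6 (NM_031168), the cytokine of the acute-phase response, lay at 2.18, 2.98 and 3.68 on the HFD arrays, against 2.76, 3.68 and 2.56 on the CD arrays. HFD replicate 3 and CD replicate 2 both reached 3.68, and the diets covered almost the same range. The difference was -0.05 (SE 0.45), with 0.57 within the shared slide and values from -0.42 to 0.33 when single mice were left out.

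Within a diet, the genes differed in which mice stood out. Il33 and its receptor Il1rl1 both fell below their diet's mean on HFD replicate 3 (-0.47 for Il33, -0.81 for Il1rl1) and CD replicate 2 (-0.68 and -1.02), the lowest 2 of the 6 mice for Il1rl1. Il1a was above its diet's mean on HFD replicate 3 (0.90) and CD replicate 1 (0.72), the arrays on which Il1b lay furthest below (-0.61 and -1.01). Il6 was above its diet's mean on HFD replicate 3 (0.73) and CD replicate 2 (0.68), the arrays on which Il1rl1 was low.

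**Figure D3:**
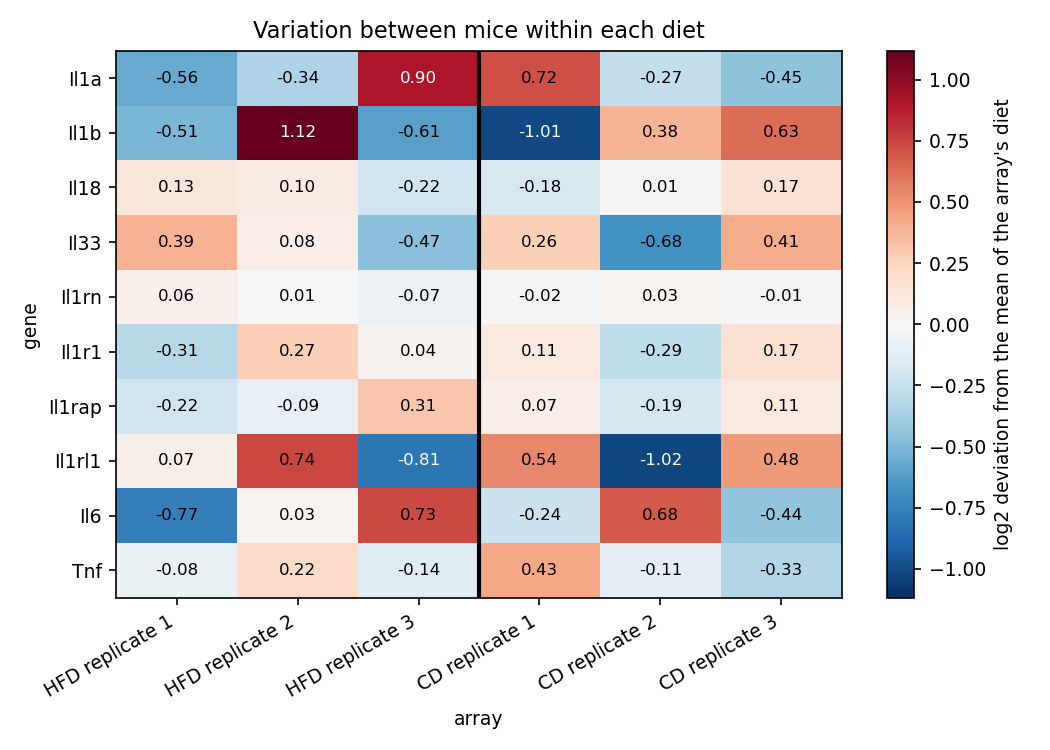
Deviation of each gene on each array from the mean of its diet (colour and printed value, log2), 10 genes down and 6 arrays across, with HFD left of the line and CD right of it. Il1b, Il1rl1, Il1a and Il6 reach deviations from -1.02 to 1.12, and those of Il1rn stay between -0.07 and 0.06.

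For the profile over the 6 arrays, each gene centred on its own mean, the named gene nearest to Il1rn was Htr1d (root mean square distance 0.07 log2 units) and the nearest to Il1r1 was Sqor (0.07). The nearest to Il18 was Lpar1 (0.10) and to Il1rap Hs1bp3 (0.05). Tnf was nearest to Rapgef5 (0.09), followed by Tnfrsf1b, a receptor of Tnf itself (0.09). Distances were larger where mice of one diet varied: Il1b was nearest to Hcst (0.17), Il6 to Pld4 (0.18), Il33 to Bend4 (0.20), Il1a to Sh2d1b1 (0.22) and Il1rl1 to Sh3rf3 (0.28). Among the 10 genes themselves, the nearest pairs were Il1rn and Tnf (0.25, with 5.07% of 16386 named genes nearer to Il1rn), Il1r1 and Il1rap (0.28, with 0.964% nearer to Il1r1) and Il18 and Il1rap (0.30, with 17.0% nearer to Il18). Il33 and its receptor Il1rl1 lay 0.39 apart, with 1.37% nearer to Il33. These distances over 6 arrays hold the diet difference as well as the variation within a diet.

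The other genes of these pathways were taken from 7 lists with 103 genes, of which 95 were measured. In limma 0 of the 95 passed an adjusted p of 0.05 in either direction. At an unadjusted p under 0.05, 6 of the 95 had higher and 18 lower values with HFD, where 13.3% of all genes passed in either direction. Diets did not overlap for 8 genes with HFD above CD, which is 8.42% against 8.47% of all genes. They did not overlap for 17 genes with HFD below CD, which is 17.9% against 8.75% of all genes. The median difference over the 95 genes was -0.10.

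Other receptors and decoys of the family were led by Il1r2, the decoy receptor that binds interleukin-1 without signalling. It lay at -3.31, -2.95 and -2.75 on the HFD arrays, against -1.70, -1.75 and -1.48 on the CD arrays, with a difference of -1.36 (SE 0.18) and -1.15 within the shared slide. Every HFD mouse lay below every CD mouse, further apart than for any of the 10 genes. Il18bp, the secreted protein that neutralises Il18, differed by -1.11 (SE 0.28), with the HFD mice below the CD mice. Il18rap, the accessory chain of the Il18 receptor, differed by 0.92 (SE 0.24), with the HFD mice above the CD mice. Within the shared slide these were -0.51 and 0.38. The list had 6 measured genes of 8, with 3 positive and 3 negative differences and a median of 0.00487. Adjusted p was 0.117 for Il1r2, 0.261 for Il18bp and 0.268 for Il18rap.

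The other ligands had 3 measured genes of 5, all dim or variable. Il1f10 differed by 0.99 (SE 0.22), but was well above background on 3 of 3 HFD and 1 of 3 CD arrays. Il1f9, the mouse interleukin-36 gamma, differed by 0.98 (SE 0.50), well above background on 2 of 3 HFD and 1 of 3 CD arrays. Il1f6, interleukin-36 alpha, differed by 0.65 (SE 0.62), and by -0.11 within the shared slide. None of the arrays had Il1f8 well above background.

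The inflammasome and processing list, which holds the enzymes that mature Il1b and Il18, had 17 measured genes of 20. Differences were negative for 13 and positive for 4 of them, and their median was -0.29. Gsdmd, the pore protein through which mature Il1b leaves the cell, differed by -0.94 (SE 0.30), Casp4, the mouse caspase-11, by -1.63 (SE 0.54) and Txnip, a binding partner of Nlrp3, by -0.67 (SE 0.24). The differences inside the shared slide were -0.40, -0.83 and -0.34. A second probe differed by -0.24 for Txnip and by -1.67 for Casp4. The lowest adjusted p was 0.320.

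The Myd88 branch of signal transducers had 19 measured genes, 12 positive and 7 negative, with a median of 0.10. Irak3, an inhibitor of the receptor kinases, differed by -0.98 (SE 0.38), the ubiquitin ligase Traf6 by 0.61 (SE 0.24) and Myd88, the adaptor, by -0.29 (SE 0.13). On the shared slide Irak3 differed by -1.12, Traf6 by 0.06 and Myd88 by -0.43. The lowest adjusted p was 0.363.

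In the Il6 axis the difference was negative for 12 of 16 measured genes and the median was -0.24. The receptors of sister cytokines had the smallest p: Osmr, for oncostatin M, differed by -0.75 (SE 0.20), Il11ra1, for interleukin-11, by -1.24 (SE 0.37) and Lifr by -1.01 (SE 0.31). For each of them the HFD mice lay below the CD mice. Within the shared slide they differed by -0.40, -0.48 and -0.41, and the lowest adjusted p was 0.277. The other 2 probes of Lifr differed by -0.91 and -0.05.

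In the Tnf axis, 10 of 17 measured genes had positive differences, with a median of 0.02. The Tnf receptors went opposite ways: Tnfrsf1b differed by 0.67 (SE 0.18) and Tnfrsf1a by -0.47 (SE 0.18), with no overlap between diets for either gene. Traf5, a receptor-bound adaptor, differed by -0.90 (SE 0.19). Within the shared slide these were 0.34, -0.13 and -0.62. A second Tnfrsf1a probe differed by -0.41, and the lowest adjusted p was 0.224.

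Among genes that interleukin-1 and Tnf are known to induce, the difference was negative for 14 of 17 measured genes. The median was -0.66, and for 6 genes all HFD mice lay below all CD mice, against 8.75% of all genes. Il23a, a subunit of interleukin-23, went the other way, with all HFD mice above all CD mice and a difference of 0.69 (SE 0.21). The smallest p were those of the monocyte chemokine Ccl2, which differed by -0.86 (SE 0.16), its relative Ccl7 with -0.96 (SE 0.18) and the adhesion molecule Vcam1 with -1.53 (SE 0.32). In the shared slide alone they differed by -0.68, -0.96 and -1.30. A second Vcam1 probe differed by -0.42 over all arrays. Saa3, an acute-phase protein singled out after its values were seen, lay at -0.97, -0.89 and 0.81 on the HFD arrays, against 4.46, 1.31 and 3.34 on the CD arrays. That difference was -3.39 (SE 0.87, adjusted p = 0.264 in limma), the largest in the list. Csf2, also named after its values were seen, was the only one of the 95 genes to pass in any alternative: without HFD replicate 3 it differed by -1.56 (limma adjusted p = 0.046), against -0.97 over all arrays.

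**Figure D4:**
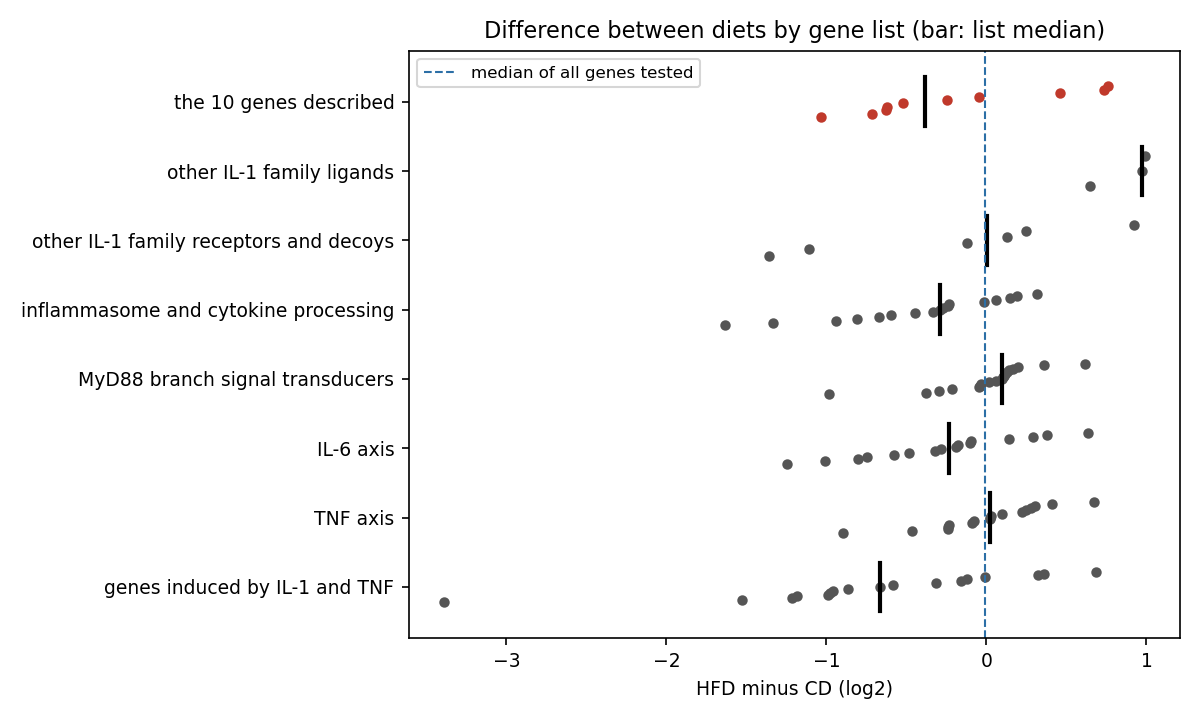
Difference of HFD minus CD (horizontal axis, log2) for the 10 genes described (red) and for each measured gene of the 7 pathway lists (grey), with a black bar at each list's median and a dashed line at the median of all genes. The lists of genes induced by interleukin-1 and Tnf (median -0.66) and of inflammasome genes (-0.29) lie mostly left of the line.

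Markers of the cell types that make or sense these cytokines also differed between the samples. Summed over a list, signals are given relative to the 75th percentile. The counts of markers whose diets did not overlap stand against 8.47% of all genes with HFD above CD and 8.75% with HFD below CD, so a single gene of a short list is near that background. Basal and myoepithelial markers were above CD on every HFD array for 7 of 8 genes, with a summed level of 218.9 to 260.2 on the HFD arrays against 96.0 to 149.0 on the CD arrays. Fibroblast markers were below CD on every HFD array for 3 of 8 genes (Dcn, Lum and Pdgfra), and their summed level was 195.0 to 493 with HFD against 410.1 to 701 with CD. Of 8 measured keratinocyte markers, 3 lay above and 1 below, with sums of 3.96 to 5.40 with HFD against 2.46 to 4.68 with CD. Luminal markers had sums of 237 to 457 with HFD against 194 to 294 with CD. Most of each sum came from Krt18, for which the diets overlapped. Diets did not overlap for 1 of the 10 luminal genes, while all 10 differences were positive, with a median of 0.70.

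For leukocytes, macrophage and monocyte markers had sums of 10.4 to 15.9 with HFD against 13.2 to 14.4 with CD. Diets overlapped for all 10 measured genes of 13, and no array had Cd163 well above background. Most of each sum came from Itgam and Cd14, so the sums say little about the other markers. Adgre1, Mrc1, Lyz2, Mertk, Fcgr1, C1qa and C1qb were dim, with diet means between -6.62 and -3.93. Of 5 measured neutrophil markers, 1 lay below CD on every HFD array, and the sums were 28.9 to 32.2 with HFD against 33.6 to 36.8 with CD. Most of each sum came from the bright Csf3r, which differed by -0.08 (SE 0.15) with overlap between diets. No array had the neutrophil markers Retnlg and Ngp well above background. Mast cell and innate lymphoid markers, which include cells known to carry Il1rl1, had 5 measured genes of 12. Their sums were 4.31 to 7.37 with HFD against 4.57 to 5.85 with CD. Most of these sums came from Areg, Gata3 and Kit, and Kit is also in the luminal list, so they do not single out these cells. No array had Ms4a2, Fcer1a or Il7r well above background. Diets overlapped for all 4 measured B cell markers, while 1 of 5 T and NK cell markers, 1 of 4 dendritic cell markers and 1 of 7 endothelial markers lay above CD on every HFD array. Of 7 adipocyte markers, 1 lay above and 2 below. Of 6 measured skeletal muscle markers, 4 lay below CD on every HFD array, with sums of 2.67 to 4.19 with HFD against 4.62 to 7.10 with CD. The part of these cell types in the differences of Il1rn, Tnf, Il18, Il1r1 and Il1rap was not tested.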

How the data were processed

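Mammary RNA of 6 mice was hybridised to 6 Cy3 arrays. Per the file headers, Agilent Feature Extraction 11.0.1.1 read each array, and the deposited scanner files hold intensity on a linear scale (background-subtracted and detrended processed signal, median spot signal and median local background) for 44397 spots. The table of values the authors deposited holds scaled intensity for 30608 probes, unlogged. Of its values, 99.9% per array were the processed signal times a constant, to within 1%.

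Control and outlier spots were left out and the rest averaged by probe, which lost 111 of 39429 probes for want of a usable spot on some array. Levels are log2 of the processed signal over the array's 75th percentile. A probe was kept if at least 3 of 6 arrays had it well above background, and the probe with the highest mean stood for a gene. RefSeq accessions named 27421 probes (GRCm38.p6 gene table), and no probe coordinates are given, since the array's annotation uses an older build. The test of diet was limma 3.58.1, run in R 4.3.3 (HFD minus CD, two-sided, Benjamini-Hochberg over 23460 genes or 28689 probes).  SE values are limma's.

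The 10 genes, the gene lists, the motifs and the alternatives were chosen with earlier results of these data known. Named genes were the 10, the 3 smallest p per pathway list where none passed, and nearest profiles. On simulated data for HFD minus CD over 23460 genes, the fit recovered 20.0% of log2 changes of 1, 80.0% of 2 and 92.5% of 3. The number of arrays limits the precision. Whether replicate numbers pair the arrays was not settled. Deviations of same-numbered arrays correlated at 0.33, -0.14 and 0.25, and arrays with different numbers were not compared.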

Additional observations from a re-analysis of the deposited data

How the results depend on the processing

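Under 16 alternatives none of the 10 genes passed the test (lowest adjusted p 0.073 in limma, for Il1rn). Il1rn, Tnf, Il18, Il1r1, Il1rap, Il33 and Il1rl1 kept their direction in each. For the first 5 of these the diets did not overlap, so leaving out an array or blocking on slide could not turn the sign. Their kept direction in those alternatives is therefore no support. Il1rn ranged from 0.71 to 0.93, Il1r1 from -1.18 to -0.88, Il18 from -0.71 to -0.42, Tnf from 0.34 to 0.95 and Il1rap from -0.78 to -0.12. Il33 ranged from -1.17 to -0.48 and Il1rl1 from -1.09 to -0.08, the last with the mean of its 3 probes, of which 2 had positive differences on their own. Il1a changed sign in 2 alternatives, Il1b in 2 and Il6 in 3, each time on leaving out an array or blocking on slide. With a normexp background the median of all genes was 0.27, where Il1rn stood at 0.93, Tnf at 0.76, Il18 at -0.42 and Il1rap at -0.37. Il1a and Il33 have no row in the table of values used here.

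Counts over all genes were unstable. The 4 genes became 2 with the median as the centre, 7 among probes well above background on all 6 arrays, and 0 with quantile normalization, a normexp background, no filter or slide as a block. With the replicate number as a block, 0 genes and 0 probes passed, though whether these numbers pair the arrays was not settled. The 5 probes that passed became 8 among those detected on all arrays and 0 with a normexp background, no filter or slide as a block. Leaving out each array gave 0 to 37 genes, 0 to 122 probes and 0 to 1 pathway genes, the highest each time without HFD replicate 3. At an unadjusted p under 0.05 there were 3129 genes, 5 of them among the 10. The cause of these shifts was not tested. Signal over background limits Il1rn, the dimmest of the 13 probes, and Il1f9 and Il1f10, which were near the detection limit on some arrays.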
